A study of Solanum lycopersicum with 14 samples.

Results

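The comparison described here sets the oldest fruit of a yellow-fruited tomato mutant beside red-fruited tomato at a younger age, and asks which ripening genes the old mutant fruit transcribed at the level of 47-day wild-type fruit. The mutant is n3122, sampled at 60 DPA (days post anthesis, the age of a fruit counted from the opening of its flower). It is set against M82, the wild-type cultivar that forms its background, sampled at 47 DPA. Both groups were fruit pericarp, the fleshy fruit wall, of greenhouse plants, and neither carried a transgene or received a treatment according to the labels. Each group had 2 libraries, so 4 of the 14 libraries of the study enter this comparison, and no label says whether the 2 libraries came from separate plants. The other groups were younger n3122 fruit (35, 47 and 54 DPA) and M82 fruit of 35 and 54 DPA. Age and genotype differ together between 60-day n3122 and 47-day M82, and their parts in a difference cannot be told apart. Members are the 18278 of 34725 genes in the table that had at least 1 FPKM (a count of sequenced fragments scaled to transcript length and library size) in either group.

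Tomato is a climacteric fruit, in which a burst of the gas ethylene accompanies ripening and feeds back on its own synthesis. Ethylene binds receptors that act as brakes, the membrane protein EIN2 relays the signal when the brakes are released, and transcription factors of the EIN3-like (EIL) family then act on target genes. Together with the regulators RIN, NOR and CNR this cascade is known to switch on lycopene synthesis, softening of the cell wall and production of aroma, while chloroplasts turn into chromoplasts. The n3122 mutation is known in the literature as an allele of a yellow-fruit locus that encodes EIN2.

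EIN2 itself stood at 1.95 FPKM in 60-day n3122 fruit and at 33.6 FPKM in 47-day M82 fruit, 5.81% of the M82 level. It was called lower, and its values at 35, 47 and 54 DPA were 3.75, 2.50 and 2.91 FPKM in n3122, so the oldest fruit lay no higher than younger mutant fruit. The fruit genes TAGL1 and FUL2, MADS-box factors of fruit identity and ripening, were present in both groups, TAGL1 at 174 and FUL2 at 208 FPKM in n3122 and TAGL1 at 217 and FUL2 at 218 FPKM in M82.

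A gene is written here as called where the q-value in the authors' deposited table was at or under 0.05, and the direction was read from the FPKM values. By this rule 2795 genes, 15.4% of the 18179 tested, were called. Of these, 1472 (8.10%) were higher and 1323 (7.28%) lower in n3122. The median log2 fold change over all members, computed as log2 of n3122 FPKM plus 1 over M82 FPKM plus 1, was 0.02, with quartiles at -0.37 and 0.43. The median was 1.28 among the genes called higher and -1.22 among those called lower. The files hold 1 FPKM value per gene and group and no value per library, so no SD stands beside a level and no test beyond the authors' own was possible. A gene that was not called is not shown to be equal in both groups, and the number of reads behind a value is unknown.

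Among genes abundant in 47-day M82 fruit, calls of lower outnumbered calls of higher. Of the 89 genes at 1000 FPKM or more in 47-day M82, 34 were lower and 4 higher in 60-day n3122. Of the 1806 genes at 100 FPKM or more in M82, 460 were lower and 69 higher. Among those 460, n3122 held at least 50% of the M82 level for 157, between 10 and 50% for 269, and under 10% for 34. Viewed from the mutant side, of the 91 genes at 1000 FPKM or more in 60-day n3122, 24 were higher and 6 lower than in 47-day M82. Choosing genes by the level of one group favours differences in that direction, so both views are given.

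The wild-type ripening program can be outlined from libraries that stand in neither group of the comparison, M82 at 54 and at 35 DPA. By their FPKM values 809 of the tested genes were at least 4-fold higher in M82 at 54 than at 35 DPA, on the log2(FPKM + 1) scale, and 1106 were at least 4-fold lower. In 60-day n3122 against 47-day M82, 375 of the 809 genes that go up with age in M82 were called lower (46.4%) and 55 higher (6.80%), and their median log2 fold change was -1.01. For 79 of the 375, the n3122 level was under 10% of that in M82. The remaining 379 were not called. Of the 1106 genes that go down with age in M82, 398 were called higher in 60-day n3122 (36.0%) and 30 lower (2.71%), with a median of 0.76. Among the 16264 genes between these limits 1019 were higher and 918 lower, 6.27% and 5.64%, with a median of 0.01. With a limit of 2-fold or 8-fold, 31.0% or 58.0% of the genes that go up were called lower and 24.9% or 41.1% of those that go down were called higher. Within n3122, the median log2 change between 35 and 54 DPA was 1.14 for the 809 genes and -1.06 for the 1106. In M82 it was 2.83 and -2.83, but the classes were chosen on these same M82 values, so a smaller change in n3122 is built into this pair of medians. The 35 and 54 DPA values come from tables scaled separately.

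**Figure D1:**
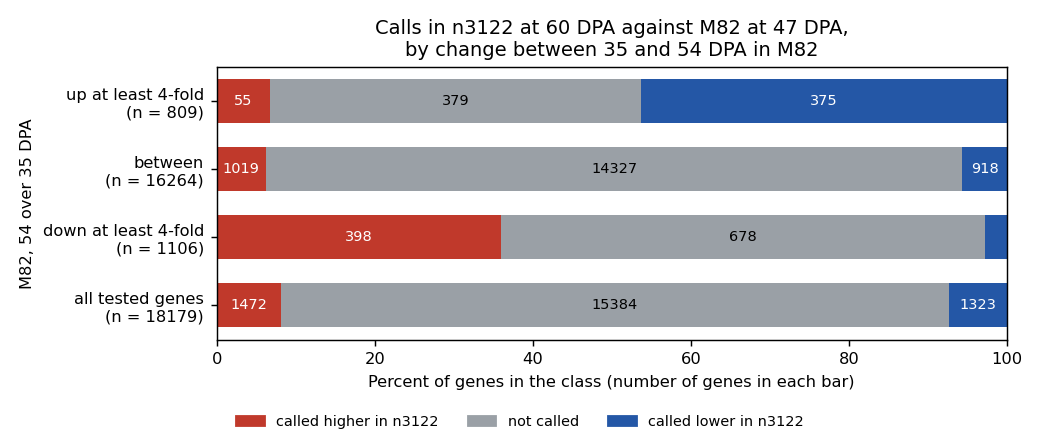
Percent of tested genes called higher (red), not called (grey) or called lower (blue) in 60-day n3122 against 47-day M82 fruit, with genes grouped by their change between 35 and 54 DPA in M82; numbers in the bars are genes. Calls of lower make up 46.4% of the 809 genes that go up at least 4-fold in M82, and calls of higher 36.0% of the 1106 that go down at least 4-fold.

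Named ripening genes were then examined in 18 lists by role, with 274 different genes. Of these, 32 were under 1 FPKM in both groups. Of the 242 others, 41 were higher, 59 lower and 142 not called. Over all tested genes, 8.10% were higher and 7.28% lower, and the counts of each list below stand beside these shares. A core of 41 genes was named whatever their values, except CHIL, which was chosen after values were seen. Of these, 5 were higher (CD1 and GAME4 passing the minimum only through n3122), 24 lower (CHIL among them) and 12 not called. Among those 24, n3122 held under 10% of the M82 level for 6, between 10 and 50% for 17, and 51.7% for RIN.

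**Figure D2:**
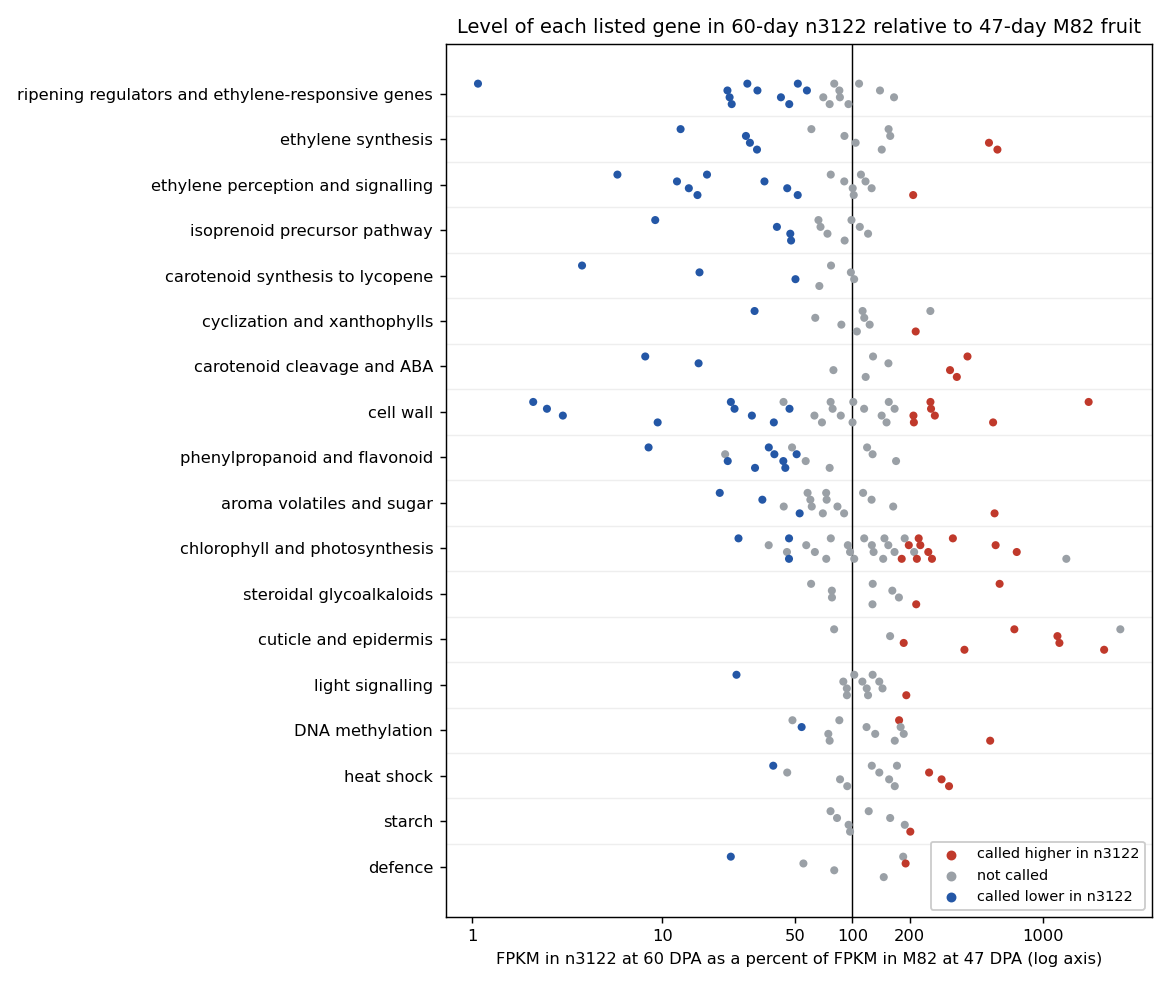
Level of each listed gene in n3122 at 60 DPA as a percent of its level in M82 at 47 DPA (log axis), 1 point per gene, by list; red points are called higher, blue points lower, grey points not called. The line marks 100%, and E4, in the top list, is the point farthest to the left at 1.07%.

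Ripening regulators and ethylene-responsive genes ranged from 1.07 to 166% of their M82 level. The upper end is AGL11, a gene near the minimum that was not called, with 1.27 FPKM in n3122 and 0.767 FPKM in M82. Of 20 regulators and ethylene-responsive genes, 19 were at 1 FPKM or more, and of those 10 were called lower, 0 higher and 9 not called, with a median log2 fold change of -0.78. At a q of 0.01 or less in the authors' deposited table, 6 were lower. RIN, the MADS-box factor needed for ripening, had 364 FPKM in 60-day n3122 and 704 FPKM in 47-day M82, and its call was marginal, the authors' deposited table giving a q of 0.0464. In n3122 it had stood at 2.66, 7.23 and 28.3 FPKM at 35, 47 and 54 DPA. NOR, a NAC factor upstream of many ripening genes, had 281 FPKM in n3122 and 604 FPKM in M82, or 46.5%. FUL1, a MADS-box partner of RIN, had 356 FPKM in n3122 and 847 FPKM in M82, and was called lower at 42.1%. Its n3122 values at 35, 47 and 54 DPA, 244, 375 and 315 FPKM, already lay near that of the oldest fruit.

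CNR, an SBP-box factor whose epigenetic silencing gives colourless fruit, had 56.8 FPKM in n3122 and 251 FPKM in M82, and AP2A, an AP2-family factor that restrains ripening, had 109 FPKM in n3122 and 345 FPKM in M82. Both were called lower, at 22.6% and 31.7%. CNR at 35, 47 and 54 DPA had 35.1, 37.0 and 35.3 FPKM in n3122, below the 60-day value. The ethylene response factors ERF.E4 (28.0%) and ERF.E1 (23.2%) and the MADS-box gene MADS1 (57.7%) were also lower. TAGL1 at 80.3%, FUL2 at 95.4%, the homeobox gene HB1 at 108% and DML2, a DNA demethylase active in ripening, at 75.9% were not called. DML2 had 223 FPKM in n3122 and 294 FPKM in M82.

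E4 and E8 are classical ethylene-responsive fruit genes, and they differed from each other in the oldest mutant fruit. E4 had 48.2 FPKM in n3122 and 4486 FPKM in M82, the lowest percentage of M82 among all listed genes that were called. Its n3122 values at 35, 47 and 54 DPA were 22.6, 33.8 and 45.6 FPKM. E8 had 1112 FPKM in n3122 and 5048 FPKM in M82, or 22.03%, against 73.5, 219 and 356 FPKM in n3122 at 35, 47 and 54 DPA.

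**Figure D3:**
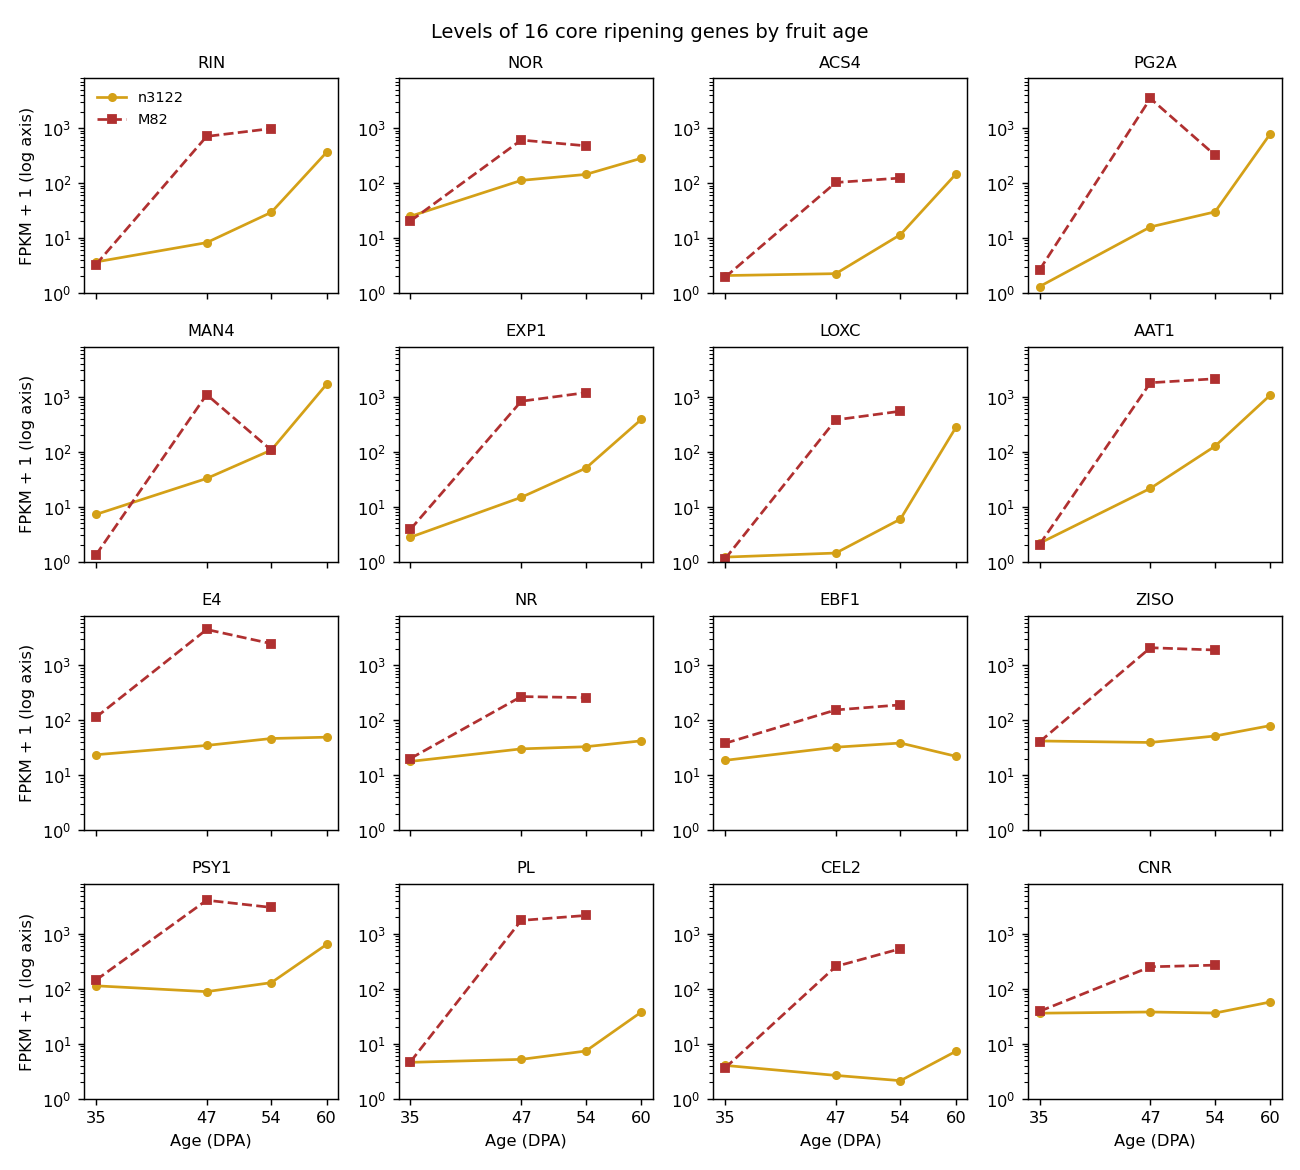
FPKM plus 1 (log axis) of 16 core genes by fruit age in DPA, n3122 as circles on a solid line and M82 as squares on a dashed line, 1 value per group without replicate values. In the oldest n3122 fruit the genes in the upper rows (RIN to AAT1) lie at 22.96% of the 47-day M82 level or more. Those in the lower rows (E4 to CNR) lie below this. The 16 genes are a choice from the core genes, split into rows by this level. No gap divides the rows, with PG2A at 22.96% and CNR at 22.6%. Points of different ages come from separately scaled tables.

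Genes of ethylene synthesis were split. Of 15 genes, 12 were at 1 FPKM or more, with 2 called higher, 4 lower and 6 not called and a median of -0.04. ACC synthases make the ethylene precursor and ACC oxidases convert it to ethylene. ACS4, a synthase of the ripening burst, had 144 FPKM in n3122 and 101 FPKM in M82 and was not called, after 1.07, 1.24 and 10.5 FPKM in n3122 at 35, 47 and 54 DPA. ACS2, the other synthase of the burst, had 97.7 FPKM in n3122 and 354 FPKM in M82 and was called lower at 27.6%, though it too exceeded the 4.12, 12.01 and 21.1 FPKM of younger mutant fruit. ACS6, a synthase of the low ethylene output of green tissue, was 5.79-fold higher, with 38.5 FPKM in n3122 and 6.66 FPKM in M82. In n3122 ACS6 had 28.3, 55.6 and 29.1 FPKM at the 3 younger ages.

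Among ACC oxidases, ACO1 (28.9%), ACO3 (12.5%) and ACO5 (31.5%) were called lower and ACO6 (60.9%) and ACO4 (90.8%) were not called. ACO1, the most abundant, had 737 FPKM in n3122 and 2547 FPKM in M82. Unlike ACS2 and ACS4, it did not have its highest mutant value at 60 DPA, with 194, 906 and 1238 FPKM at 35, 47 and 54 DPA. ACO1 and ACO3 are close relatives that lie near each other, so reads may be shared between them. SAM1, which makes the methyl donor S-adenosylmethionine from which ACC derives, was 5.23-fold higher, with 1560 FPKM in n3122 and 298 FPKM in M82, while SAM2 (158%) and SAM3 (104%) were not called. In n3122 SAM1 had 2293, 1846 and 1931 FPKM at 35, 47 and 54 DPA, and in M82 it had 1824 FPKM at 35 DPA.

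In ethylene perception, 8 genes were called lower: EIN2, 4 receptors, EBF1, CTR1 and EIL4. All 16 genes of the list were at 1 FPKM or more, with 1 called higher and 7 not called and a median of -0.62. Of the 7 receptor genes 4 were lower. NR had 41.2 FPKM in n3122 and 269 FPKM in M82 (15.3%), and ETR4 had 49.4 FPKM in n3122 and 287 FPKM in M82 (17.2%). ETR6 (11.96%) and ETR7 (34.5%) were the other 2. ETR1, ETR2 and ETR5 were not called, at 102%, 126% and 76.9%. The receptors called lower are the ones that stood highest in 47-day M82: 30.2 to 287 FPKM, against 4.57 to 23.6 FPKM for the others. The same M82 values enter the comparison, which by itself favours calls of lower where M82 is high.

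EBF1, an F-box protein that marks EIL factors for degradation, had 21.1 FPKM in n3122 and 153 FPKM in M82 (13.8%). Its value in 60-day n3122 lay below the 31.3 and 37.5 FPKM of n3122 at 47 and 54 DPA. CTR1, a kinase that keeps the pathway off, was called lower at 45.4%, and its relatives CTR3 and CTR4 were not called at 117% and 100%. Among the EIL factors, EIL1 (90.6%) and EIL3 (111%) were not called, EIL4 was lower at 51.6%, and EIL2 was 2.09-fold higher with 45.8 FPKM in n3122 and 21.9 FPKM in M82.

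The precursors of carotenoids come from the plastid MEP pathway and are joined to geranylgeranyl diphosphate by GGPS enzymes. Of 13 genes, 11 were at 1 FPKM or more, with 4 lower, 0 higher and 7 not called and a median of -0.54. GGPS2, the ripening-associated synthase, had 8.14 FPKM in n3122 and 88.6 FPKM in M82 (9.19%). The first enzyme of the MEP pathway, DXS1 (40.1%), the kinase CMK (47.1%) and GGPS3 (47.6%) were also lower. HDR (109%) and IDI1 (98.9%), the most abundant genes of this list, were not called.

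Among genes of lycopene synthesis, the fruit phytoene synthase and the zeta-carotene isomerase had the lowest transcript levels relative to M82. Of 7 genes from phytoene to lycopene, 3 were lower, 0 higher and 4 not called, with a median of -0.57. PSY1, the fruit phytoene synthase, had 644 FPKM in n3122 and 4102 FPKM in M82 (15.7%), where the authors' deposited table gives a q of 0.0141. The oldest mutant fruit exceeded the 113, 88.0 and 129 FPKM of n3122 at 35, 47 and 54 DPA. ZISO, which isomerises the zeta-carotene intermediate, had 79.0 FPKM in n3122 and 2087 FPKM in M82 (3.79%), against 41.0, 38.4 and 50.7 FPKM in younger n3122 fruit. PTOX, an oxidase that serves phytoene desaturation, was lower at 50.2%. The desaturases PDS (98.2%) and ZDS (67.0%), the isomerase CRTISO (77.2%) and PSY2, the leaf-type synthase (102%), were not called. PDS had 108 FPKM in n3122 and 110 FPKM in M82.

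Among 9 genes of ring formation and xanthophylls, 1 was higher, 1 lower and 7 not called, with a median of 0.16. These shares lay near those of all tested genes, 8.10% higher and 7.28% lower. The epoxidase ZEP was 2.15-fold higher, with 48.3 FPKM in n3122 and 22.5 FPKM in M82, and the hydroxylase CRTRB2 was lower at 30.6%. LCYE, the cyclase that leads to lutein, had 3.59 FPKM in n3122 and 1.40 FPKM in M82 and was not called, and CYCB, the chromoplast cyclase, was near 2 FPKM in both groups (1.90 FPKM in n3122, 2.17 FPKM in M82). Of 11 cleavage and abscisic acid (ABA) genes, 9 passed 1 FPKM, with 3 higher and 2 lower. CYP707A2, an ABA-degrading hydroxylase, had 9.40 FPKM in n3122 and 115 FPKM in M82 (8.14%), whereas its relative CYP707A1 was 4.03-fold higher, with 17.1 FPKM in n3122 and 4.25 FPKM in M82. The ABA receptor gene PYL9 was lower at 15.5%. The dioxygenase CCD4B was 3.54-fold higher, with 10.9 FPKM in n3122 and 3.09 FPKM in M82. NCED1, the main ABA synthesis gene of the fruit, was not called, with 106 FPKM in n3122 and 133 FPKM in M82. Its relative NCED2 was called higher, at lower levels, with 8.86 FPKM in n3122 and 2.72 FPKM in M82.

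Cell wall genes spanned the widest range of the 18 lists, with log2 fold changes from -5.54 to 2.46. The upper end is XTH16, which passed the minimum only through n3122, and GP1 follows at 2.44. Of 33 genes, 29 were at 1 FPKM or more, with 7 higher, 9 lower and 13 not called and a median of -0.20. PL, a pectate lyase needed for softening, had 36.9 FPKM in n3122 and 1760.4 FPKM in M82. CEL2, an endoglucanase, had 6.31 FPKM in n3122 and 255 FPKM in M82 (2.48%), and XTH9, which remodels xyloglucan, had 5.66 FPKM in n3122 and 188 FPKM in M82 (3.002%). PG2A, the ripening polygalacturonase, was less far from M82, with 794 FPKM in n3122 and 3458 FPKM in M82 (22.96%). Mutant fruit at 35, 47 and 54 DPA had had 0.306, 14.9 and 28.9 FPKM of PG2A. The 60-day n3122 value of PG2A lay above that of 54-day M82 fruit, which was 320 FPKM. EXP1, the ripening expansin that loosens walls, reached 385 FPKM in n3122 and 825 FPKM in M82 (46.7%).

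MAN4, an endo-mannanase, had 1694 FPKM in 60-day n3122 and 1090.4 FPKM in 47-day M82 and was not called. It had 106 FPKM in n3122 at 54 DPA and 105 FPKM in M82 at 54 DPA. The pectin methylesterase gene PE1 (167%) and XTH5 (76.8%) were not called either. The galactosidases TBG4 (24.0%), TBG1 (38.6%) and TBG5 (29.6%), which trim galactan side chains, and XTH1 (9.46%) made up the rest of those called lower.

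Those called higher were PE2, PMEU1, GP1, EXPA3, EXPA5, EXP9 and XTH16. GP1, the non-catalytic beta subunit of polygalacturonase, was 5.49-fold higher, with 371 FPKM in n3122 and 67.5 FPKM in M82. EXPA5 had 57.3 FPKM in n3122 and 22.1 FPKM in M82, and PMEU1, a methylesterase, had 22.1 FPKM in n3122 and 8.59 FPKM in M82. These 3 stood higher at 35 DPA in both genotypes: GP1 at 1149 FPKM in n3122 and 1039.8 FPKM in M82, EXPA5 at 157 FPKM in n3122 and 146 FPKM in M82, and PMEU1 at 247 FPKM in n3122 and 314 FPKM in M82. PE2 and EXP9 did not: at 35 DPA PE2 had 195 FPKM in n3122 and 170 FPKM in M82, below its 392.2 FPKM in 60-day n3122 and 186 FPKM in 47-day M82, and EXP9 had 2.91 FPKM in n3122 at 35 DPA and 8.86 FPKM at 60 DPA. EXPA3, with 147 FPKM in n3122 and 70.0 FPKM in M82, had 259 FPKM in n3122 and 242 FPKM in M82 at 35 DPA. XTH16 had 6.61 FPKM in n3122 and 0.378 FPKM in M82, with 16.3 FPKM in n3122 and 15.6 FPKM in M82 at 35 DPA. For its low M82 value only the log2 fold change with 1 FPKM added to both values is given.

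Genes of flavonoid synthesis, the source of the yellow peel pigment naringenin chalcone, were called lower or not at all. Of 18 phenylpropanoid and flavonoid genes, 15 were at 1 FPKM or more, with 8 lower, 0 higher and 7 not called and a median of -1.14. The chalcone synthases CHS1 and CHS2, related genes between which a sharing of reads was not tested, were both lower. CHS1 had 27.6 FPKM in n3122 and 326 FPKM in M82 (8.48%), and CHS2 had 120 FPKM in n3122 and 277 FPKM in M82 (43.3%). The chalcone isomerase-like gene CHIL (22.1%), F3H (36.3%), FLS (38.9%), 4CL (30.8%) and PAL5 (50.9%) were lower, as was the pathway's activator MYB12, with 21.4 FPKM in n3122 and 48.2 FPKM in M82. Younger mutant fruit had less of both synthases, with CHS1 at 0.195 and 0.554 FPKM and CHS2 at 12.5 and 14.3 FPKM in n3122 at 47 and 54 DPA. HQT, which makes chlorogenic acid (75.9%), and CCR1 of lignin synthesis (128%) were not called. PAL3 had 5.83 FPKM in n3122 and 27.2 FPKM in M82 but was not called.

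Of 22 genes of volatiles and sugars, 16 were at 1 FPKM or more, with 1 higher, 3 lower and 12 not called and a median of -0.48. Among all tested genes 8.10% were higher and 7.28% lower. LOXC, the lipoxygenase of green-leaf volatiles, had 275 FPKM in n3122 and 378 FPKM in M82 (72.8%) and was not called. Its mutant values at 35, 47 and 54 DPA were 0.205, 0.428 and 4.92 FPKM. AAT1, an alcohol acyltransferase that makes esters, had 1077 FPKM in n3122 and 1792 FPKM in M82 (60.1%), against 1.15, 20.5 and 125 FPKM in younger mutant fruit, and was not called. The alcohol dehydrogenase ADH2 (43.5%), LOXB (58.1%) and the vacuolar invertase TIV1 (61.1%) were not called although each was above 1000 FPKM in both groups. LOXA was 5.59-fold higher, with 3594 FPKM in n3122 and 643 FPKM in M82, and 2096 FPKM in n3122 at 54 DPA. HPL, which cleaves lipid hydroperoxides to volatile aldehydes (20.1%), the sucrose synthase SUS1 (33.6%) and the invertase inhibitor VIF (52.8%) were lower.

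Several photosynthesis genes were above their M82 level in old mutant fruit. This list of 36 genes also covers chlorophyll metabolism, and 32 were at 1 FPKM or more, with 10 higher, 3 lower and 19 not called and a median of 0.51. The 10 were RBCS1, RBCS2 and RBCS3 (small subunits of Rubisco), its activase RCA, the light-harvesting genes CAB7, CAB8, CAB10A, CAB10B and CAB13, and PSBP of photosystem II. RBCS2 had 529 FPKM in n3122 and 232 FPKM in M82 (2.28-fold), and at 35 DPA 3107 FPKM in n3122 and 1720.2 FPKM in M82. CAB7 had 189 FPKM in n3122 and 95.6 FPKM in M82 (1.98-fold), and 1130.5 FPKM in n3122 and 735 FPKM in M82 at 35 DPA. CAB13 had 8.23 FPKM in n3122 and 1.13 FPKM in M82. RBCS and CAB genes are families of near-identical copies, and the authors' counting could move reads between members.

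The 3 called lower were SGR1, APRR2 and ELIP. SGR1, the magnesium-removing protein that starts chlorophyll breakdown and also binds PSY1, had 394 FPKM in n3122 and 849 FPKM in M82 (46.4%), against 128, 241 and 258 FPKM in n3122 at 35, 47 and 54 DPA. The other breakdown genes, PAO (72.9%), PPH (77.0%) and the chlorophyll b reductase NYC1 (57.2%), were not called. APRR2, a regulator of plastid pigment, had 14.0 FPKM in n3122 and 55.6 FPKM in M82. PSBR at 1260.4 FPKM in n3122 and 855 FPKM in M82 and PSBQ (154%) were not called. Of all 14 CAB genes, 5 were called higher, 0 lower, 7 were not called and 2 were not tested. Of 6 PSB and PETE genes, 1 was higher and 5 were not called. The uncalled genes lay on both sides of M82, with CAB6A at 63.5%, PETE at 94.6%, CAB9 at 97.2% and CAB4 at 145%.

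**Figure D4:**
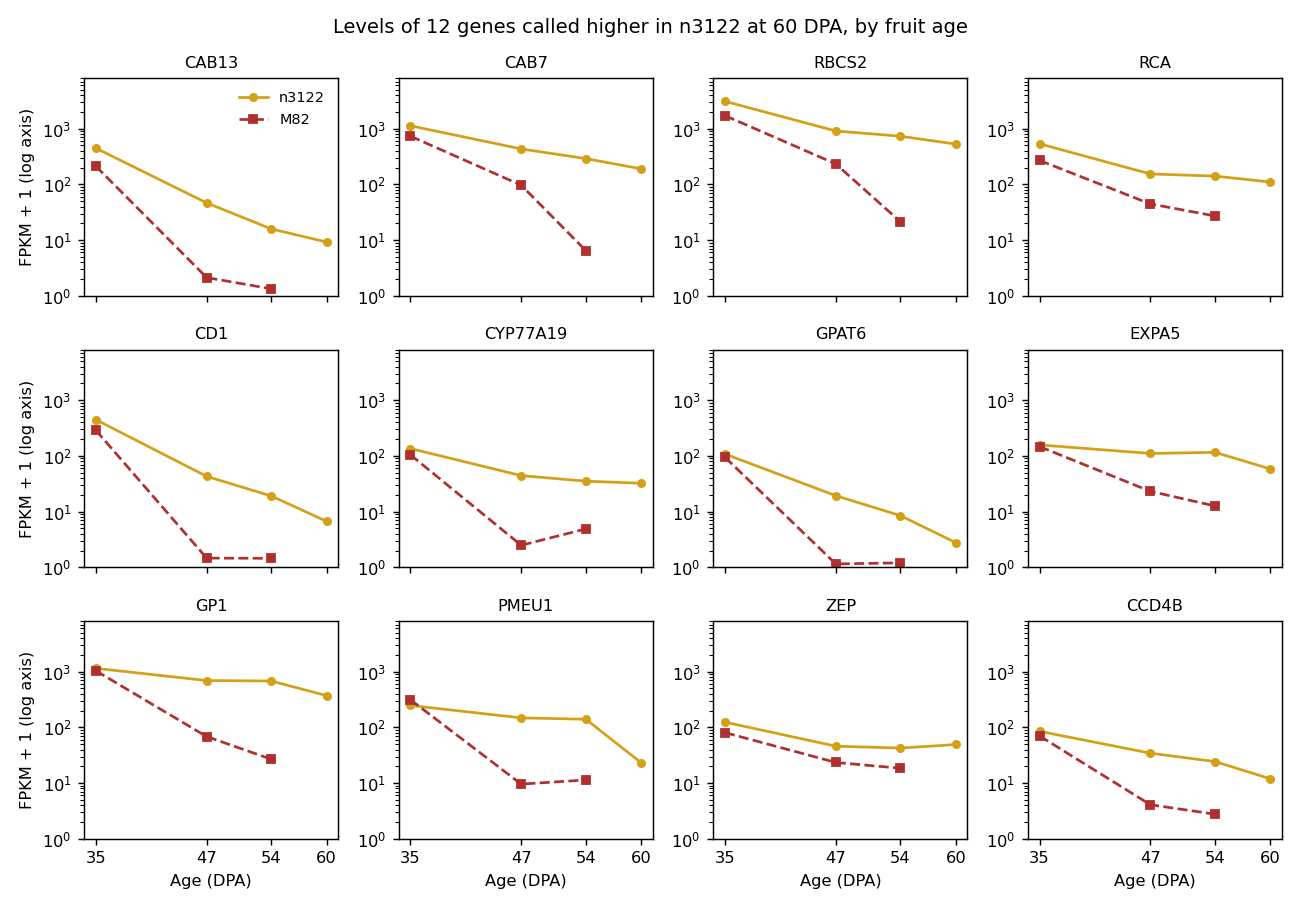
FPKM plus 1 (log axis) by fruit age in DPA of 12 genes called higher in n3122 at 60 DPA against M82 at 47 DPA, n3122 as circles on a solid line and M82 as squares on a dashed line, 1 value per group. Each gene shown stood higher at 35 DPA than at 54 DPA in n3122 and in M82. RBCS2, for example, had 3107 and 733 FPKM in n3122. The genes were chosen after their values were seen, so this shared course is not a result. Not all listed genes called higher followed it: in n3122 LOXA had 1061 and 2096 FPKM and EXP9 2.91 and 11.3 FPKM at 35 and 54 DPA.

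Cuticle genes called higher came mostly from low values in M82. Of 11 genes, 9 were at 1 FPKM or more, with 6 higher, 0 lower and 3 not called and a median of 1.27. CD1, GPAT6 and TTS2 were under 1 FPKM in M82 and passed the minimum only through n3122, and with 1 FPKM required in both groups 3 were called higher. CYP77A19, a cutin hydroxylase, had 31.3 FPKM in n3122 and 1.49 FPKM in M82. The cutin synthase CD1 had 5.67 FPKM in n3122 and 0.463 FPKM in M82, GPAT6, an acyltransferase of cutin assembly, 1.77 FPKM in n3122 and 0.148 FPKM in M82, and TTS1 and TTS2, triterpenoid synthases of the wax, 12.3 and 4.22 FPKM in n3122 and 3.17 and 0.594 FPKM in M82. CD2, a homeobox regulator of the cuticle, had 52.4 FPKM in n3122 and 28.2 FPKM in M82. All of these but CD2 stood higher still at 35 DPA within each genotype, CD1 at 447 FPKM in n3122 and 289 FPKM in M82. As epidermis markers, CD1, CD2, CER6, CYP86A69, SHN3 and MIXTA summed to 204 FPKM in 60-day n3122 and 124 FPKM in 47-day M82, with 2 of 6 called higher, 0 lower and SHN3 at 0 in M82. In pericarp, more epidermis and more RNA per epidermal cell cannot be told apart, and the part of the epidermal share in these differences was not tested.

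Steroidal glycoalkaloid genes, which make the bitter defence compounds of green fruit, gave 2 called higher, 0 lower and 7 not called among 9 of 13 at 1 FPKM or more, with a median of 0.34. GAME4 passed the minimum only through n3122, so the count was 1 with 1 FPKM in both groups; it was also 1 with 5 FPKM in either group or a log2 fold change of at least 1. GAME4 had 2.96 FPKM in n3122 and 0.498 FPKM in M82, and GAME12 had 11.0 FPKM in n3122 and 5.07 FPKM in M82. GAME31, which converts the bitter alkaloid during ripening, was not called, with 472 FPKM in n3122 and 778 FPKM in M82.

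In light signalling, 1 of 12 genes was higher and 1 lower, a share near that of all genes, and the 8 phytochromes and cryptochromes, at 93.5 to 144% of M82, were not called. HY5, a factor that promotes light responses and pigmentation, had 11.2 FPKM in n3122 and 45.4 FPKM in M82 (24.6%). COP1, the ligase that removes HY5, was 1.92-fold higher, with 46.4 FPKM in n3122 and 24.1 FPKM in M82.

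Of 12 DNA methylation genes, 2 were higher, 1 lower and 9 not called, beside 8.10% higher and 7.28% lower among all tested genes. The demethylase DML1 was 5.30-fold higher, with 27.3 FPKM in n3122 and 5.16 FPKM in M82. In n3122 it had 19.98, 22.8 and 23.6 FPKM at 35, 47 and 54 DPA, whereas the youngest and the oldest M82 fruit had 8.43 and 8.36 FPKM. The methyltransferase DRM6 was 1.76-fold higher and MET1, which maintains methylation at cell division, was lower at 54.1%.

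Of 12 heat shock genes, 3 were higher (HSP17.4, MTSHP and the factor HSFA3) and 1 lower (ERSHSP), with a median of 0.48, beside 8.10% higher and 7.28% lower among all tested genes. MTSHP, a mitochondrial small heat shock protein, had 19.7 FPKM in n3122 and 6.11 FPKM in M82. Of 8 starch genes 1 was higher, the granule-bound synthase GBSS1, with 69.2 FPKM in n3122 and 34.3 FPKM in M82. Of 6 defence genes at 1 FPKM or more, NP24, an osmotin-like protein, was lower with 199.8 FPKM in n3122 and 871 FPKM in M82, PRP2 was 1.90-fold higher, and 4 were not called. The starch and defence counts are of single genes and stand beside the same 8.10% higher and 7.28% lower among all tested genes.

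Among called genes outside the lists and above 0 FPKM in both groups, the extremes were much larger. The genes are given by identifier, since the files hold no names. Solyc08g066240 had 0.290 FPKM in n3122 and 2440 FPKM in M82, and Solyc01g088400 had 2.28 FPKM in n3122 and 3366 FPKM in M82, log2 fold changes of -10.89 and -10.00. In the youngest M82 fruit Solyc08g066240 had 0.987 FPKM and Solyc01g088400 49.98 FPKM. At the other end, Solyc01g091170 had 86.4 FPKM in n3122 and 0.878 FPKM in M82 (5.54), and Solyc08g023660 had 141 FPKM in n3122 and 2.16 FPKM in M82 (5.49). Solyc08g066240 passed the minimum of 1 FPKM only through M82 and Solyc01g091170 only through n3122. The size of their log2 fold changes therefore rests on a value under 1 FPKM. Solyc01g091170 was present in young M82 fruit, with 169 FPKM at 35 DPA, whereas Solyc08g023660 at 35, 47 and 54 DPA had 41.6, 56.3 and 26.7 FPKM in n3122 and 2.98, 2.25 and 2.22 FPKM in M82, each in the table of that age. A further 219 members were listed at 0 in one group, 90 in n3122 and 129 in M82, of which 84 were called; no fold is given for them.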

How the data were processed

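The tools named in the submitters' processing notes are TopHat2 (version 2.0), Cufflinks and CASAVA, while the genome build is not given in the sources used here. Per the file headers, each of 4 deposited tables holds 1 FPKM per gene and group, a log2 fold change, a test statistic (a score), a p-value and a q-value, all by the authors. In the table used here the statistic had the opposite sign to the FPKM difference for all 18624 tested genes, so directions came from FPKM. M82 at 47 DPA stood in a second table at 0.960 times its value there (SD 0.00118 over 17208 genes), so tables were taken as scaled separately.

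Fold changes used a pseudocount of 1 FPKM, which understates changes of low genes; genes needed 1 FPKM in either group. Calls use the authors' q-value at or under 0.05. With 2 libraries per group, p-values measure only the spread between these, which may be technical. Scripts used Python 3.11.15 with pandas 2.3.3 and were tested on simulated data.

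The members and lists were chosen with earlier results of these data known. The files give identifiers only, so symbols were paired with them from general knowledge and checked by place against a RefSeq table (assembly SLM_r2.1): 258 of 275 lay within 5% of the expected place, 16 names were absent from it (NR, GGPS3, CCD4A, CCD4B, CHIL, FLS, PAO, PPH, NYC1, POR1, APRR2, RCA, GAME31, CYP86A69, MIXTA and AGPS1), and 1 lay elsewhere and was dropped. This cannot tell a gene from close neighbours. The text names the core genes, up to 3 called genes each way and up to 4 abundant uncalled genes per list, and 4 extremes outside the lists. Other listed genes, the defence list, CHIL, the removal of some tandem copies and the classes from M82 at 35 and 54 DPA were chosen after values were seen. Alternatives were another q-value, fold and FPKM minimum, other pseudocounts and other scalings.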

Additional observations from a re-analysis of the deposited data

How the results depend on the processing

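At a q-value at or under 0.01, 816 genes were higher and 781 lower, and 26 listed genes were higher. Under a minimum log2 fold change of 1, no FPKM minimum, 1 FPKM in both groups or 5 FPKM in either, the counts over all genes and over listed genes stayed within 1.5 times. Of 100 listed genes called, 28 lost the call at 0.01, 15 of them higher and 13 lower. Among them were RIN, NOR, E8, ACO1, PSY1, EXP1, SGR1, CAB7, GAME4, CD1 and LOXA. Calls of lower fell to 6 for the regulators, 1 for the chlorophyll list and 0 for DNA methylation. Calls of higher fell to 0 for glycoalkaloids, aroma and sugar, light signalling, starch and defence. They fell to 1 for DNA methylation and to 3 for the cuticle list. With 1 FPKM in both groups, calls of higher were 3 for the cuticle list and 1 for glycoalkaloids. A pseudocount cannot change the sign of a fold change. The other scalings shifted all values by too little to reverse any called listed gene, so unchanged signs say nothing about how firm the calls are. The cuticle median was 2.64 with a pseudocount of 0.1 and 2.83 with none. Equal FPKM totals moved the median over all members from 0.02 to -0.07.

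No paired analysis was possible because the files hold 1 value per group, and for the same reason no result was computed without a library. The sequencing depth is unknown.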
